A study of Mus musculus with 12 samples.

Results

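Matrix metalloproteases (MMPs), ADAMTS proteases and tissue inhibitors of metalloproteases (TIMPs) were followed in left ventricle apex of mice after pressure overload. The members are the genes whose symbol is Mmp, Adamts or Timp followed directly by a number. They number 46 of the 56350 gene IDs measured, namely 23 MMP, 19 ADAMTS and 4 TIMP genes. Of these, 32 had a normalised read count of at least 10 in at least 3 libraries and were tested, namely 12 MMP, 16 ADAMTS and all 4 TIMP genes.

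MMPs and ADAMTS proteins are zinc-dependent proteases that are made as inactive precursors and act mostly outside the cell or at its surface. MMPs cut fibrillar collagens, basement membrane and other matrix proteins, while ADAMTS enzymes process procollagens and cut large proteoglycans such as versican. TIMPs bind the active site of MMPs and, to differing degrees, of ADAMTS enzymes, and the balance of proteases and inhibitors is widely studied in fibrosis and remodelling of the heart under load. Their mRNA says nothing of how much precursor is activated.

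Mice had undergone either a sham operation or transverse aortic constriction (TAC), which narrows the aorta and loads the left ventricle, and polyadenylated RNA was sequenced 8 weeks later. Controls carried the genotype lincRNA-p21 heterozygous, so they too lack one copy of this long noncoding RNA gene (Trp53cor1), and knockouts were its global knockout littermates. The 2 genotypes and 2 operations form 4 groups of 3 libraries each. No fully wild-type group is part of the comparisons, the age of the mice is not given in the sources used here, and the labels do not say whether each library is a separate animal, so p-values measure the spread between libraries.

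Libraries held from 10323605 to 13238934 reads assigned to genes, of which 12.5% to 20.0% were mitochondrial. Trp53cor1 had 11 reads in all control libraries together (0 in 2 of the 6 libraries) and 0 in all knockout libraries, which allows up to 0.0413 CPM (counting error only). Cardiomyocyte and ventricular markers were abundant in every library (summed levels of 629799 to 880165 and of 164367 to 333537), as the labelled tissue requires. Control sham replicate 3 stood apart from the others on the second principal component (14.4% of the variance).

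Levels between genes were compared per length, as RPKM (reads scaled by exon length in kb and by the library's total reads). Averaged over all 12 libraries, Timp2 (30.2), Mmp15 (26.3), Mmp2 (23.8), Timp3 (16.3), Adamts1 (15.1) and Timp4 (12.1) led the tested members. Timp2 encodes an inhibitor that also takes part in the activation of MMP2, a gelatinase made by stromal cells, and Mmp15 encodes a membrane-anchored MMP. In control sham libraries Timp2 (33.3 ± 4.4, SD, n = 3), Mmp15 (31.3 ± 4.3) and Mmp2 (23.1 ± 2.2) did not all separate: the first pair differed by less than their spread. The rest ran down through Adamts7 (5.71), which encodes an enzyme that cuts cartilage oligomeric matrix protein, to Mmp12, the macrophage metalloelastase (0.111). Summed per family, control sham libraries held 73.8 ± 13.0 for the 4 TIMPs, 77.8 ± 9.95 for the 23 MMPs and 40.1 ± 10.4 for the 19 ADAMTS genes.

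**Figure D1:**
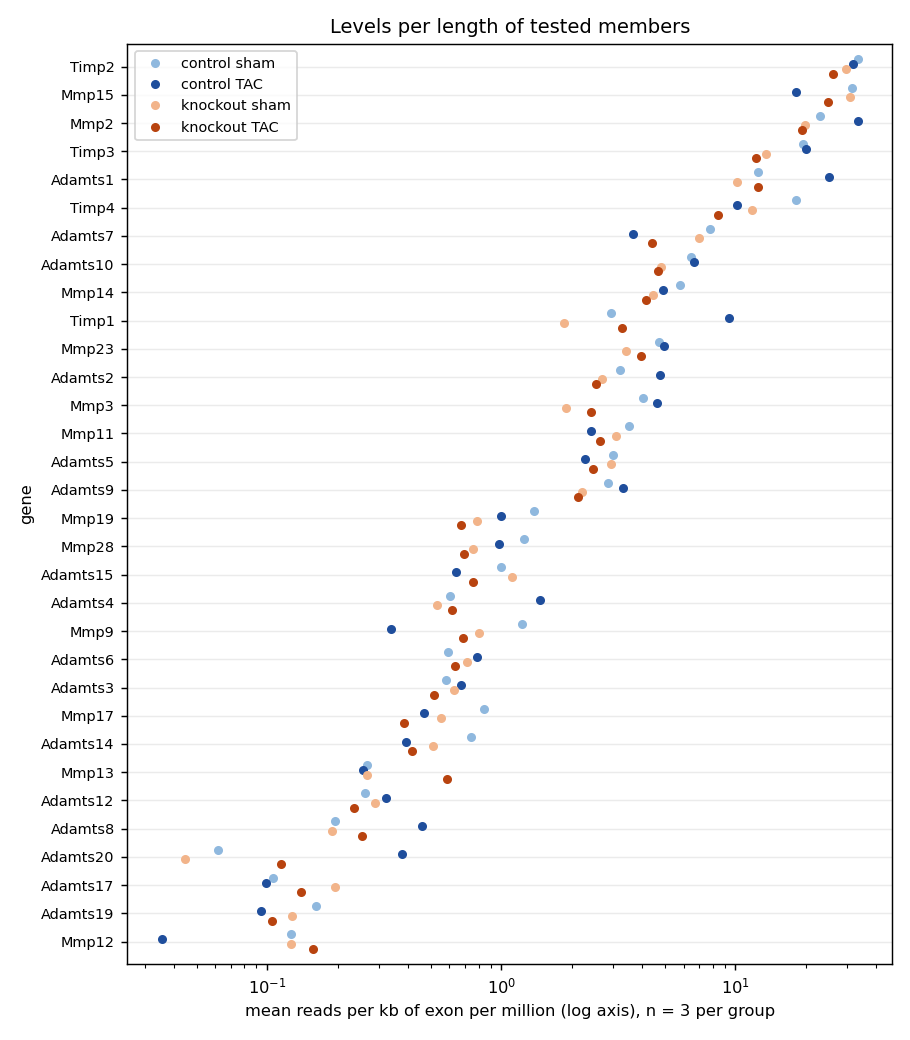
Mean level of each tested gene in the 4 groups (RPKM, log axis, 3 libraries per group), ordered by the mean over all libraries. Timp2, Mmp15 and Mmp2 lie at the top and Mmp12 at the bottom, and the control TAC points of Adamts20 and Timp1 lie to the right of those of the other groups.

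The 14 members that were not tested had low values. No read was counted in any library for Mmp1a, Mmp1b, Mmp7, Mmp10 and Mmp20, which allows up to 0.0211 CPM over all libraries together (counting error only). Mmp1a and Mmp1b belong to the interstitial collagenases, and Mmp1a is annotated as a polymorphic pseudogene. Mmp7, Mmp10 and Mmp20 encode matrilysin, stromelysin-2 and the enamel protease enamelysin. The others were Mmp8, Mmp16, Mmp21, Mmp24, Mmp25, Mmp27, Adamts13, Adamts16 and Adamts18. Mmp16, which encodes a membrane-type MMP, had most among them, with 30 reads over the 3 control sham libraries and 20, 18 and 14 over those of control TAC, knockout sham and knockout TAC.

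Several tested members share their locus with another gene on the opposite strand, and since the strand setting of the counting is not given in the sources used here, reads from overlapping exons cannot be told apart. Exons overlap, among others, for Mmp11 (with Chchd10, mean value 7146), Adamts7 (Tbc1d2b, 245), Mmp19 (Tmem198b, 61.6), Timp4 (Syn2, 44.8), Timp3 (Syn3, 8.44), Mmp28, Adamts8, Adamts9 and Mmp12 (with Mmp1b, which had no read). Timp1 lies inside Syn1 (6.83) without an overlap of exons.

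All 5 members without a read belong to one cluster. On chromosome 9, 10 MMP genes lie between 7272514 and 7699585 (GRCm38, GENCODE M21), a span of 427 kb, and only Mmp3, Mmp12 and Mmp13 of these were tested. RefSeq promoter windows (GRCm38.p6) were matched for 32 of the 46 members, among them all 10 cluster genes. In the 250 bases before the start, read on both strands, the AP-1 motif TGANTCA was found for 8 of the 10 cluster genes and for 0 of the other 22 members, against 6.75% of all 32851 windows. The letters TATAAA were found for 7 of 10 and 2 of 22 (12.4% of all windows), and the GC box letters GGGCGG for 0 of 10 and 16 of 22 (32.7%). A gene was counted if any of its starts matched, while the shares are of single windows, so these measures are not alike. The upstream start of Mmp12 had no AP-1 letters. No motif contains another, and a match is a description of letters, not of binding.

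Both kinds of promoter occur among the members whose values are described below, and 5 are shown 5′ to 3′ on the gene's strand with these motifs in capitals, in either orientation. Mmp13 (chr9:7272264-7272513) and the downstream of the 2 Mmp12 starts (chr9:7347124-7347373, inside the first intron of the longer transcript) have AP-1 letters. Timp1 (chrX:20869916-20870165), Adamts2 (chr11:50601835-50602084) and Mmp15 (chr8:95352046-95352295) have GC boxes and neither of the others.
Mmp13: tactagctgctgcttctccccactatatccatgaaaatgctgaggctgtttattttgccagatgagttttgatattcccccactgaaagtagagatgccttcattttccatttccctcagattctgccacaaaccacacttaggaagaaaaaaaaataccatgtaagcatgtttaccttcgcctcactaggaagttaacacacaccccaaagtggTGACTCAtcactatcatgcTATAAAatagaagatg
Mmp12: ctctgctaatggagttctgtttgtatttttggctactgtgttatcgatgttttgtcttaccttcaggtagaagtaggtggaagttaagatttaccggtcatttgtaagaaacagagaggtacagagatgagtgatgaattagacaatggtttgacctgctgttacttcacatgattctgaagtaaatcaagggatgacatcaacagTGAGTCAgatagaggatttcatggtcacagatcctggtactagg
Timp1: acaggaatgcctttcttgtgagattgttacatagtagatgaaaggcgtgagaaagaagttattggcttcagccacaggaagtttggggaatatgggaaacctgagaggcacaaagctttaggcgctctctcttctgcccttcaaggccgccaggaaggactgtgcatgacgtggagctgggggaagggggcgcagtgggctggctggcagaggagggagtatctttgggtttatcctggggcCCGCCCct
Adamts2: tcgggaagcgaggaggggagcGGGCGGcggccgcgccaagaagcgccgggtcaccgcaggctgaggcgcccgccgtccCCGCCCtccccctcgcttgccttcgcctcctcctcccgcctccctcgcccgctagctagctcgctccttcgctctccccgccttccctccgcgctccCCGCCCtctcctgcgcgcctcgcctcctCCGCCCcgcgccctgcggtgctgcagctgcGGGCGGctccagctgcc
Mmp15: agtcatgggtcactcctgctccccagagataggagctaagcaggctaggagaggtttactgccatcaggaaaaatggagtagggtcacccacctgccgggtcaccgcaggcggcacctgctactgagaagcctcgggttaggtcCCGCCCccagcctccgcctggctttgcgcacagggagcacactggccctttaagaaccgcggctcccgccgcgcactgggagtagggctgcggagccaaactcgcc
In Mmp13 the AP-1 letters begin 35 bases and the TATA letters 16 bases before the start. In Mmp12 the AP-1 letters begin 44 bases before it. Adamts2 has 5 GC boxes in this window, and Timp1 and Mmp15 have 1 each.

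The effect of pressure overload was asked first in controls. After TAC, 4 members rose (Timp1, Adamts20, Adamts2 and Mmp2) and 3 fell (Mmp15, Mmp9 and Mmp12) in comparison with sham, while 25 did not pass. These 7 of 32 set against 21.6% of all 13916 genes tested (11% higher, 10.6% lower), a share near the background. The median difference of the members was 0.01 on the log2 scale, and that of all genes tested was 0.01. By family, 1 of 4 TIMPs rose, 1 of 12 MMPs rose and 3 fell, and 2 of 16 ADAMTS genes rose. Without control TAC replicate 3 the counts were 6 higher and 7 lower, and without control TAC replicate 2 they were 2 and 2. Of all genes tested, 17.8% and 11.1% passed in these settings, in either direction. Without control sham replicate 3, the library that stood apart, Mmp12 was lost, the other 6 calls held and Adamts6 was gained (17.3% of all genes passed). Without control sham replicate 1, 9 members passed, of which 5 fell (26.3% of all genes passed).

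Timp1 encodes a secreted inhibitor that is induced in activated stromal cells. Its normalised read counts (reads divided by the size factor of the library) were 15.98, 49.4 and 23.7 in control sham libraries and 69.2, 138.0 and 80.2 in control TAC libraries. All control TAC libraries lay above all sham libraries, with replicate 2 highest in both groups. The difference was 1.74 ± 0.41 (log2 of value + 1, ± SE; limma-trend, adjusted p = 0.0085), a 3.23-fold higher mean. Without control TAC replicate 2 it was 1.45 and missed the threshold (adjusted p = 0.0516).

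The other inhibitors did not pass. Timp2 had means of 1466 ± 141 after sham and 1413 ± 86.3 after TAC, a difference of −0.05 ± 0.12. Timp3 encodes the inhibitor that stays bound to the matrix, and its means were 1788 ± 394 and 1853 ± 154 (0.07 ± 0.18). Timp4, the inhibitor known for its expression in heart muscle, had values of 604.1, 1858 and 1181 after sham and 742.9, 875.5 and 442.8 after TAC, which overlap. Its difference was −0.73 ± 0.39 (adjusted p = 0.20), and it passed only without control sham replicate 1 (−1.16, adjusted p = 0.0215), the lowest of the sham libraries.

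Mmp2 encodes gelatinase A, which cuts denatured collagen and basement membrane collagen. Its values were 882.2, 861.1 and 896.2 after sham and 1097, 1604 and 1144 after TAC. The groups did not overlap, and the sham libraries lay close together. The difference was 0.52 ± 0.15 (adjusted p = 0.020). It missed the threshold without control TAC replicate 2 (0.35, adjusted p = 0.116), without control sham replicate 2 (adjusted p = 0.0537) and when the 2 groups were fitted alone (adjusted p = 0.0735).

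Mmp15 (MT2-MMP) was the member with the smallest p. It had 1984, 1744 and 2005 normalised reads after sham and 1224, 1147 and 967.7 after TAC, so every TAC library lay below every sham library. The difference was −0.78 ± 0.13 (adjusted p = 0.0012), and it passed under every alternative run. Of the other membrane-type enzymes, Mmp14 (MT1-MMP, an activator of pro-MMP2) had means of 390 ± 20.6 and 335 ± 59.8. Mmp17, which encodes an MMP anchored through a lipid tail, had values of 49.0, 50.3 and 87.3 against 40.0, 27.8 and 37.3, without overlap and without passing (−0.77 ± 0.29, adjusted p = 0.066); DESeq2 on recovered reads called it (adjusted p = 0.0461).

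Mmp9 encodes gelatinase B, known from neutrophils and macrophages. Its values were 43.7, 45.6 and 56.8 after sham and 17.3, 13.4 and 10.3 after TAC, with no overlap. The mean was 3.57-fold lower after TAC (−1.78 ± 0.39, adjusted p = 0.0057), and it passed wherever it was tested. Mmp12 rests on few reads, 33 over the 3 sham libraries and 9 over the 3 TAC libraries. Its values were 9.59, 9.49 and 11.9 after sham and 2.16, 0 and 6.53 after TAC (−1.97 ± 0.62, adjusted p = 0.032). Without control TAC replicate 2, the library at 0, the difference was −1.21 (adjusted p = 0.145), and edgeR (adjusted p = 0.0761) and DESeq2 (adjusted p = 0.0556) did not call it. It also missed the threshold when control sham replicate 2 (adjusted p = 0.0648), control sham replicate 3 (0.0796) or control TAC replicate 1 (0.0632) was left out and with the 2 groups fitted alone (0.107).

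The 10 macrophage markers were all tested and none passed in this comparison, with summed levels of 3097 to 4213 after sham and 2620 to 4063 after TAC. Of 8 neutrophil markers, 3 were tested and none passed; their sums were 23.4 to 80.5 and 50.8 to 97.0, and Ly6g was at 0 in all libraries. Mesothelial markers moved with the surgery (7 of 12 tested fell, against 10.6% of all genes tested). Their sums were 359 to 802 after sham and 195 to 334 after TAC. The part of other cell types in the lower Mmp9, Mmp12 and Mmp15 was not tested, and in these tissue samples fewer cells of a type and less RNA per cell cannot be told apart.

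Adamts2 encodes the main procollagen I N-propeptidase, which trims procollagen before fibrils form. Its values were 355.9, 357.9 and 312.0 after sham and 508.3, 505.8 and 501.6 after TAC. The TAC libraries were nearly equal and lay above every sham library. The difference was 0.56 ± 0.12 (adjusted p = 0.0047), and it passed under every alternative. Its relatives Adamts3 and Adamts14 did not pass (means of 35.1 ± 17 against 41.4 ± 12.8, and of 42.6 ± 23.9 against 23.2 ± 1.8).

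Adamts20, a large proteoglycan-cutting enzyme related to Adamts9, was near the detection limit after sham, with 20 reads over 3 libraries against 115 after TAC. Its values were 4.26, 0.949 and 12.7 after sham and 36.8, 45.3 and 34.5 after TAC. All TAC libraries lay above all sham libraries, and the mean was 6.5-fold higher (2.93 ± 0.67, adjusted p = 0.0070). The call was kept in every setting in which the gene was tested, which leaves out the filter at 50. Its value reached 10 in only 5 libraries, among them all of control TAC. Adamts20 thus entered the test only through the group where it is high, so this separation is not independent of the filter. Adamts9 itself had means of 481 ± 125 and 572 ± 216, which overlap.

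Adamts1 and Adamts4, which encode versican- and aggrecan-cutting enzymes, differed among the control TAC libraries. Adamts1 had 694.7, 797.5 and 749.5 after sham and 1436, 2580 and 576.2 after TAC. Adamts4 had 21.3, 36.1 and 39.9 after sham and 85.4, 148.3 and 10.3 after TAC. For both genes control TAC replicate 2 was highest and replicate 3 lay below all sham libraries. Neither passed, and both did without control TAC replicate 3 (1.37, adjusted p = 0.0015, and 1.81, adjusted p = 0.0046).

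**Figure D2:**
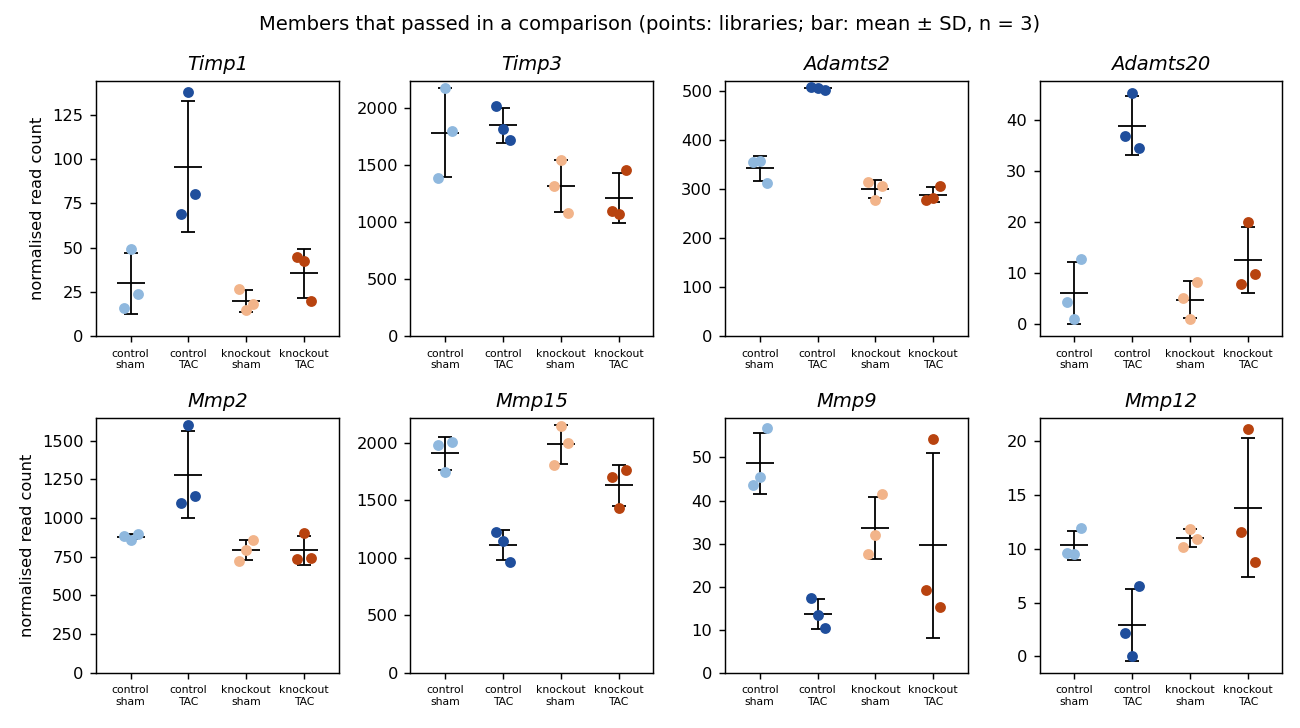
Normalised read counts of the 8 genes that passed in at least 1 comparison, by group; points are libraries and bars are the mean ± SD of 3 libraries. Control TAC libraries stand above the other groups for Timp1, Adamts2, Adamts20 and Mmp2, and below them for Mmp15.

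Counted by overlap alone, 5 members were higher in every control TAC library than in every control sham library (Timp1, Mmp2, Adamts2, Adamts20 and Adamts8) and 5 were lower (Mmp9, Mmp12, Mmp15, Mmp17 and Mmp19). The background was 17.7% of all genes in each direction, against 15.6% of the members. All 5 of the lower members were MMPs. Adamts8 and Mmp19 had means of 10.1 ± 5.1 against 24.1 ± 11.6 and of 55.4 ± 5.9 against 40.2 ± 4.0.

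The members described next passed in no comparison with all libraries included; Adamts15 passed as lower after TAC in controls when either control sham replicate 2 or control TAC replicate 3 was left out, and Mmp11 when the latter was. Mmp3 varied widely within groups: 66.1, 134.8 and 49.2 in control sham, 134.1, 60.8 and 86.7 in control TAC, 33.6, 61.1 and 27.1 in knockout sham and 75.3, 62.1 and 21.8 in knockout TAC libraries. Mmp11, the gene of stromelysin-3, had group means of 109 ± 37.3, 76.2 ± 41.0, 103 ± 2.9 and 88.8 ± 12.9 in the same order. Mmp23 had 122 ± 42.5, 132 ± 26.6, 95.0 ± 19.4 and 113 ± 11.5. Adamts15, another proteoglycan-cutting enzyme gene, had 117 ± 47.7, 75.0 ± 44.8, 137 ± 3.3 and 95.3 ± 6.9. Adamts10 had 593 ± 264, 623 ± 75.3, 474 ± 10 and 467 ± 165. Spread within the control groups exceeded the gaps between means for Mmp11, Mmp23 and Adamts10.

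**Figure D3:**
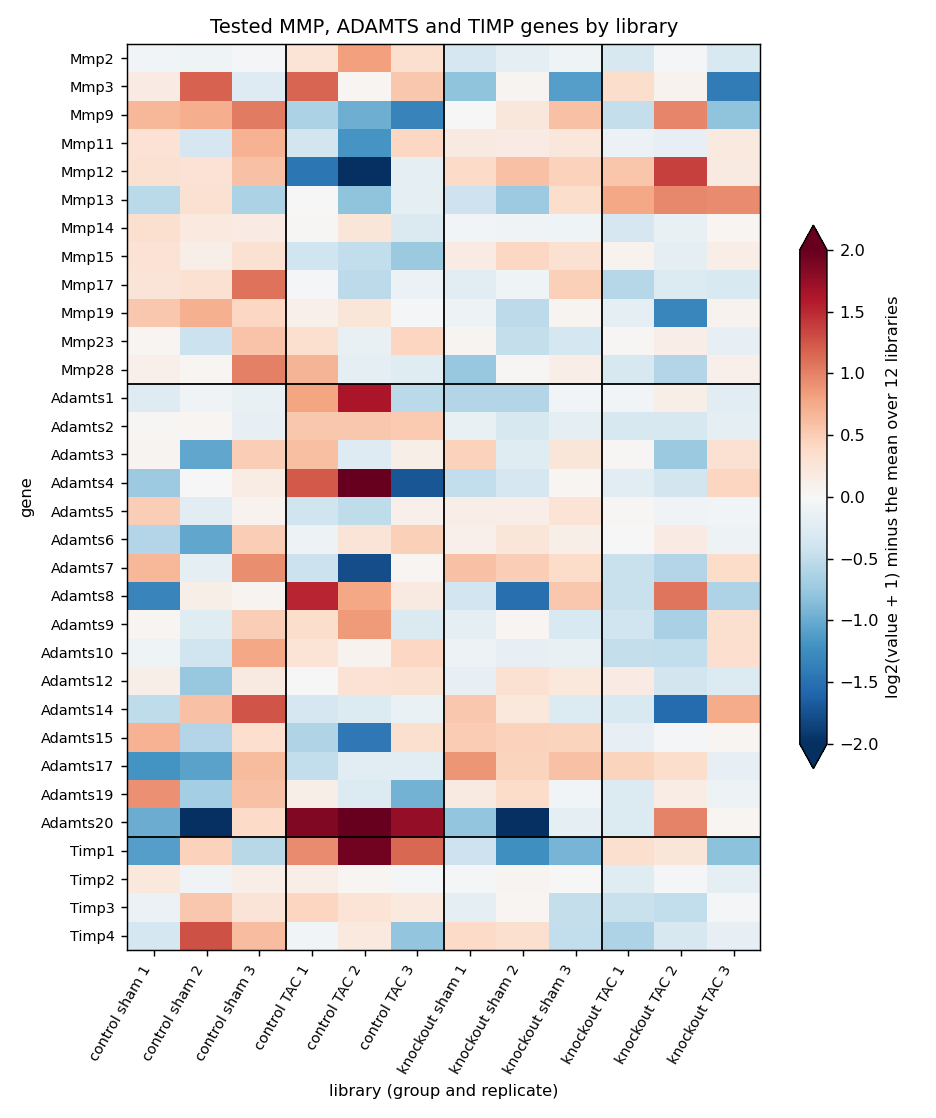
Each tested gene in each library, as log2(value + 1) minus its mean over all 12 libraries (colour scale from −2 to 2); rows are grouped as MMP, ADAMTS and TIMP. Adamts20 and Timp1 are raised in all 3 control TAC libraries, and Adamts1 and Adamts4 in replicates 1 and 2 of that group but not in replicate 3.

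Transcript length moved with this comparison. The correlation of each gene's deviation with transcript length (Spearman's rho across genes, a description of each library) was 0.326 to 0.409 in control TAC libraries and −0.343 to 0.148 in the others. For all genes tested, the median TAC difference in controls ran from −0.31 for transcripts under 2 kb to 0.49 for those over 8 kb. Members were longer than average, with a median of 4598 bases against 3352, and the ADAMTS genes longest (5653.5). With the length and GC trend removed, all 7 members passed in the same direction and 8 of the 32 passed in total. In that setting 9.66% of all genes tested passed, against 21.6% with the trend left in. Adamts2 then stood at 0.38, Adamts20 at 2.57, Timp1 at 2.16 and Mmp2 at 0.72. Adamts5, a long transcript for an aggrecan-cutting enzyme with values of 467.7, 286.7 and 349.3 against 250.9, 233.8 and 356.1, passed as lower only with the trend removed (−1.03, adjusted p = 0.0011, against −0.39 and 0.13 with the trend left in) and without control TAC replicate 3 (−0.57, adjusted p = 0.0382). The median of the members was −0.11 with the trend removed and that of all genes tested was 0.00.

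**Figure D4:**
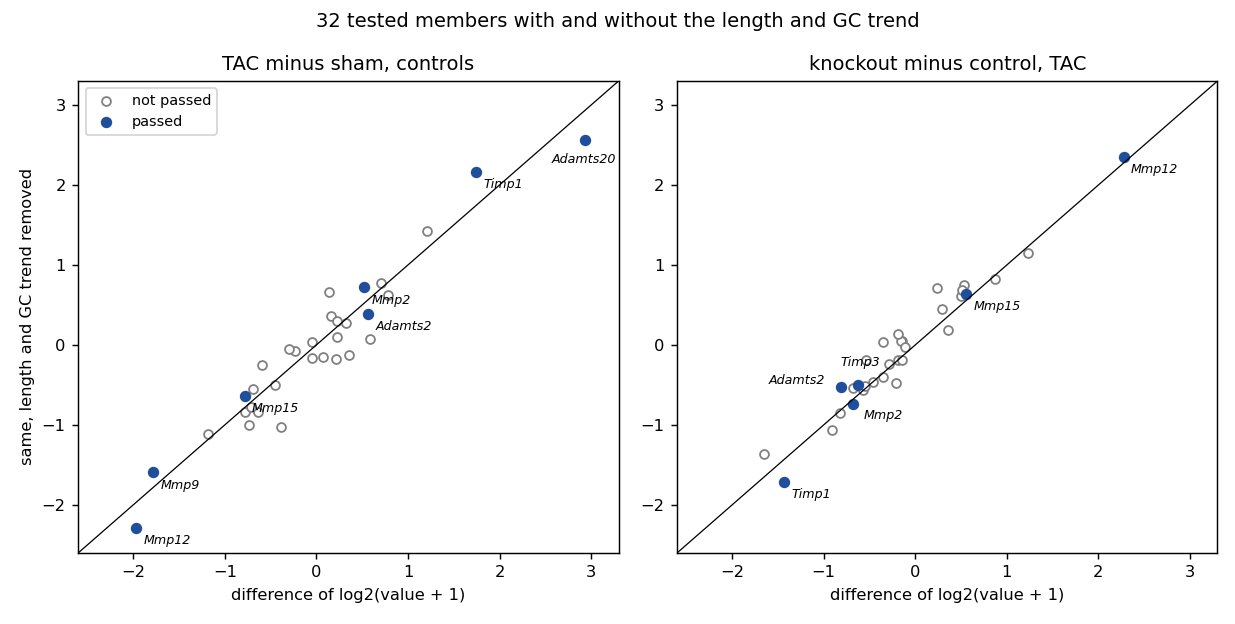
Difference of log2(value + 1) of the 32 tested genes as measured (x axis) and with the trend over transcript length and GC content removed (y axis), for TAC minus sham in controls (left) and knockout minus control after TAC (right). Filled points passed as measured; those of Timp1, Mmp2 and Mmp12 lie farther from 0 with the trend removed, and those of Adamts2 lie closer to 0.

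In knockouts, TAC was compared with sham in the same way, and no member passed. The background was 0.00719% (1 gene of 13916). edgeR and DESeq2 on recovered reads also called no member. Of the 32 members, 2 had an unadjusted p under 0.05, against 929 of all 13916 genes tested. The smallest p belonged to Mmp13, which encodes collagenase-3: its values were 7.12, 5.47 and 12.7 after sham and 17.4, 20.0 and 19.6 after TAC (1.16 ± 0.45, adjusted p = 0.68), from 27 and 54 reads. The groups did not overlap for Mmp13, the only member separated upwards (8.31% of all genes were). Its value reached 10 in only 5 libraries, among them all of knockout TAC. Mmp13 thus entered the test only through the group where it is high, so this separation is not independent of the filter.

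For the members called in controls, knockout values are given side by side. Timp1 had 26.4, 14.6 and 18.1 after sham and 44.4, 42.1 and 19.6 after TAC (0.77 ± 0.41, adjusted p = 0.75). Adamts20 had 5.09, 0.912 and 8.14 against 7.72, 20.0 and 9.82 (1.41 ± 0.67, adjusted p = 0.74). Both groups overlapped for these genes. Adamts2 had 313.3, 278.3 and 305.8 against 278.1, 280.6 and 306.5, and Mmp2 had 725.3, 793.7 and 854.9 against 732.9, 900.6 and 739.4, with nearly equal means. Mmp15 had 1808, 2152 and 2005 against 1701, 1432 and 1768, without overlap (−0.29 ± 0.13, adjusted p = 0.74). Mmp9 had 27.5, 31.9 and 41.6 against 19.3, 54.3 and 15.3, with knockout TAC replicate 2 far above the rest of its group. Mmp12 had 10.2, 11.9 and 10.9 against 11.6, 21.1 and 8.73. Mmp9 and Mmp12 overlapped between the surgeries.

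Members that were lower in every knockout TAC library than in every knockout sham library numbered 7 of 32, or 21.9%, against a background of 8.87%. They were Adamts5, Adamts7, Adamts15, Adamts17, Mmp15, Mmp17 and Timp2, and none passed the test. Timp2 had 1351, 1422 and 1371 after sham and 1154, 1349 and 1212 after TAC (−0.16 ± 0.12, adjusted p = 0.85). Adamts7 had 562.6, 531.0 and 484.9 against 275.2, 249.6 and 484.2, the closest pair of libraries being 484.9 and 484.2 (−0.71 ± 0.44, adjusted p = 0.81). Timp3 (−0.12 ± 0.18) and Timp4 (−0.44 ± 0.39) overlapped between the surgeries.

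The effect of genotype without overload was asked in sham libraries. No member passed, and no gene did (background 0%). edgeR and DESeq2 called no member either. Of the 32 members, 3 had an unadjusted p under 0.05 (Adamts17, Timp3 and Mmp19), against 604 of all 13916 genes tested. Adamts17 had 4.26, 4.75 and 17.8 in controls and 21.4, 15.5 and 17.2 in knockouts (1.19 ± 0.48). Timp3 had 1388, 2175 and 1799 against 1320, 1545 and 1084 (−0.43 ± 0.18), and Mmp19 had 54.3, 61.7 and 50.02 against 34.6, 25.5 and 38.9 (−0.74 ± 0.32). Mmp14 (−0.30 ± 0.15) and Mmp3, the gene of stromelysin-1 (−0.97 ± 0.48), followed, all 5 at an adjusted p of 0.934.

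Knockout sham values lay below all control sham values for 4 members (Mmp2, Mmp9, Mmp14 and Mmp19; 4.68% of all genes) and above them for none (4.94%). Mmp14 had 413.4, 381.7 and 374.7 in controls and 321.5, 315.7 and 313.9 in knockouts. Mmp9 had 27.5, 31.9 and 41.6 in knockout sham libraries, all under the lowest control sham value of 43.7. The other inhibitors had differences of −0.46 ± 0.41 (Timp1), −0.08 ± 0.12 (Timp2) and −0.45 ± 0.39 (Timp4). The 4 TIMPs summed to 56.9 ± 4.5 RPKM, against 73.8 ± 13.0 in control sham libraries.

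After TAC, 4 members were lower in knockouts than in controls (Adamts2, Mmp2, Timp3 and Timp1) and 2 were higher (Mmp15 and Mmp12). The background was 8.23% (4.1% higher, 4.13% lower), against 6 of 32 members. The median difference of the members was −0.20 and that of all genes tested was 0.01. Only Adamts2 passed when control TAC replicate 2 or knockout TAC replicate 1 was left out, where 1.98% and 1.54% of all genes tested passed. This comparison uses the same control TAC libraries as that of TAC with sham in controls, so the 2 sets of changes are not independent.

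Adamts2 had 278.1, 280.6 and 306.5 in knockout TAC libraries against 508.3, 505.8 and 501.6 in control TAC libraries. The groups stood far apart in comparison with their spread (−0.81 ± 0.12, adjusted p = 0.0017), a 1.75-fold lower mean. The call was kept in every alternative, and the difference was −0.53 (adjusted p = 0.0223) with the length trend removed. Mmp2 had 732.9, 900.6 and 739.4 against 1097, 1604 and 1144, without overlap (−0.68 ± 0.15, adjusted p = 0.012). It missed the threshold without control TAC replicate 2 (−0.51, adjusted p = 0.0654) or knockout TAC replicate 1 (adjusted p = 0.0716).

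Of the inhibitors, Timp1 had 44.4, 42.1 and 19.6 against 69.2, 138.0 and 80.2, a 2.71-fold lower mean (−1.43 ± 0.41, adjusted p = 0.043). It missed the threshold whenever any knockout sham, control TAC or knockout TAC library was left out (adjusted p up to 0.182, without control TAC replicate 2). Timp3 had 1102, 1070 and 1463 against 2022, 1815 and 1721 (−0.62 ± 0.18, adjusted p = 0.038). It was lost with the length trend removed (−0.50, adjusted p = 0.16), without knockout sham replicate 1 (0.0555), without control TAC replicate 1, 2 or 3 (0.143, 0.104 and 0.0524) and without knockout TAC replicate 1 or 2 (0.152 and 0.176). Timp2 (1154, 1349 and 1212 against 1501, 1409 and 1329; −0.19 ± 0.12) and Timp4 (−0.15 ± 0.39) did not pass. The 4 TIMPs summed to 50.03 ± 3.5 RPKM in knockout TAC libraries and 71.4 ± 6.6 in control TAC libraries.

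Mmp15 had 1701, 1432 and 1768 in knockouts against 1224, 1147 and 967.7 in controls, without overlap (0.55 ± 0.13, adjusted p = 0.020). It missed the threshold with control TAC replicate 2 left out (adjusted p = 0.0598), with control TAC replicate 3 left out (0.065) and with knockout TAC replicate 1 left out (0.0974). Mmp12 had 11.6, 21.1 and 8.73 against 2.16, 0 and 6.53, from 39 and 9 reads (2.28 ± 0.62, adjusted p = 0.033). Without control TAC replicate 2 the difference was 1.51 (adjusted p = 0.132), and edgeR did not call it (adjusted p = 0.0539). It was also lost without control TAC replicate 1 (0.0856), knockout TAC replicate 1 or 2 (0.101 and 0.165) or knockout sham replicate 2 (0.0506), and with the 2 groups fitted alone (0.085).

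Members without overlap between the genotypes after TAC numbered 4 higher (Mmp12, Mmp13, Mmp15 and Adamts17; 15.6% of all genes) and 5 lower (Timp1, Timp3, Mmp2, Adamts2 and Adamts20; 15.5%). Mmp13 had 17.4, 20.0 and 19.6 in knockouts and 9.73, 5.15 and 8.39 in controls and did not pass (adjusted p = 0.10). Mmp13 entered the test only through knockout TAC and Adamts20 only through control TAC, so their separations are not independent of the filter. Adamts20 had 7.72, 20.0 and 9.82 in knockouts and 36.8, 45.3 and 34.5 in controls. It did not pass (−1.66 ± 0.67, adjusted p = 0.13) but did in 3 alternatives, among them DESeq2 (adjusted p = 0.048) and a pseudocount of 5 (adjusted p = 0.0462). Adamts5 had 337.0, 315.0 and 319.6 in knockouts and 250.9, 233.8 and 356.1 in controls, which overlap. It passed as higher in knockouts only with the length and GC trend removed (0.71, adjusted p = 0.0275). Adamts1 and Adamts4 passed as lower in knockouts only without control TAC replicate 3 (7.78% of all genes passed). In that library both lay below all control sham libraries.

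**Figure D5:**
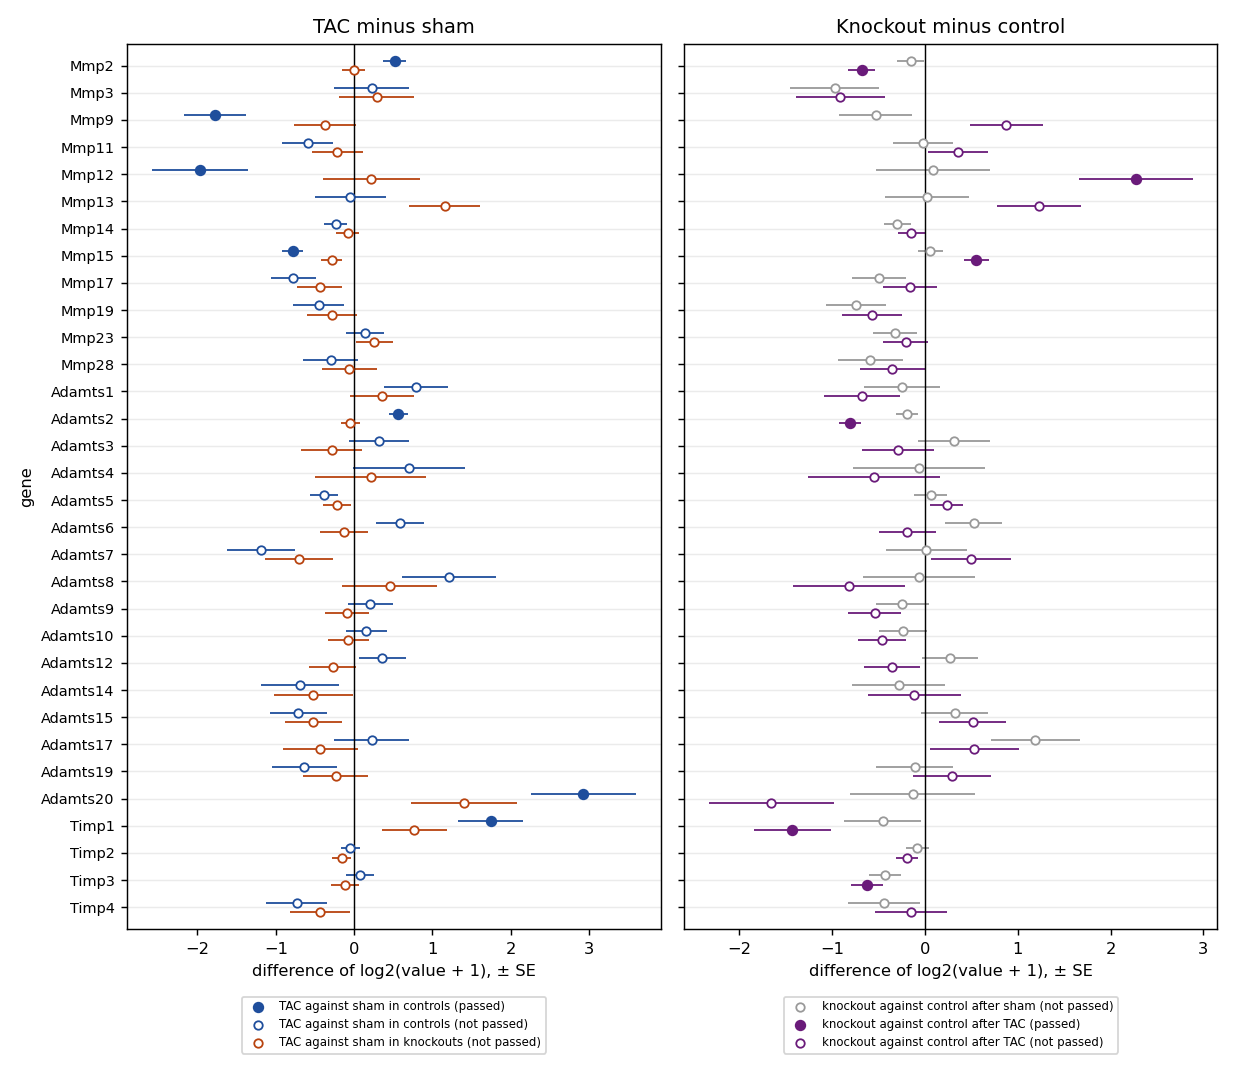
Differences of log2(value + 1) ± SE for the 32 tested genes: TAC minus sham in controls and knockouts (left) and knockout minus control after sham and after TAC (right); filled points passed at an adjusted p under 0.05. All filled points belong to TAC minus sham in controls and to knockout minus control after TAC.

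Whether the effect of TAC itself differed between genotypes was asked with the interaction. No member passed in this test (background 0.309%, with 0.0144% higher and 0.295% lower). An unadjusted p under 0.05 was found for 2292 of all 13916 genes tested and for 5 of the 32 members. Those were Adamts2 (−0.62 ± 0.17, adjusted p = 0.11), Mmp15 (0.50 ± 0.19, adjusted p = 0.21), Mmp2 (−0.52 ± 0.21), Mmp9 (1.41 ± 0.56) and Mmp12 (2.19 ± 0.87), the last 3 at an adjusted p of 0.22. edgeR called none, and DESeq2 called Adamts2 (adjusted p = 0.0284), which also passed in limma-trend without control sham replicate 1 (−0.65, adjusted p = 0.0483). For the inhibitors the difference of the TAC effects was −0.97 ± 0.59 (Timp1), −0.11 ± 0.17 (Timp2), −0.19 ± 0.25 (Timp3) and 0.30 ± 0.55 (Timp4).

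The proteins that activate, bind or serve as targets of these proteases were followed by fixed lists. Among 13 tested activators and regulators of MMPs, 1 rose and 2 fell with TAC in controls (1 and 3 after removal of the length and GC trend). Over all genes tested, 11% rose and 10.6% fell in this comparison. With the trend removed, 9.66% passed in either direction. The endocytic receptor gene Lrp1, whose product clears MMPs and their complexes, rose by 0.88 ± 0.16 (adjusted p = 0.0018). Spock2, a matrix proteoglycan gene, fell by 1.20 ± 0.25 (adjusted p = 0.0045), and Bsg, the gene of the MMP inducer basigin, fell by 0.51 ± 0.12 (adjusted p = 0.0098), a call lost with the length trend removed (−0.03, adjusted p = 0.91) and with the 2 groups fitted alone (0.0537).

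Of 9 tested ADAMTS substrates and partners, 5 rose and 1 fell with TAC in controls (5 and 0 with the trend removed). The background for these and for the MMP substrates was 11% higher and 10.6% lower (9.66% in either direction with the trend removed). Comp, the target of Adamts7 and Adamts12, rose from 46.3 ± 15.8 to 460 ± 84.8 (3.32 ± 0.28), and Vcan, the gene of versican, rose by 1.40 ± 0.22 (adjusted p = 6.6e-04). Adamts7 had means of 546 ± 196 and 258 ± 140 in the same libraries, overlapped and did not pass (adjusted p = 0.075). It passed as lower without control sham replicate 2 (−1.51, adjusted p = 0.0439) or control TAC replicate 3 (−1.57, adjusted p = 0.0197). Of 13 MMP substrates 4 rose (3 with the length and GC trend removed), with Lama2 (0.94 ± 0.16), Col1a2 (0.49 ± 0.12), Col3a1 (0.52 ± 0.15) and Lamc1 (0.48 ± 0.14). Col3a1 and Lamc1 were lost with the length trend removed (adjusted p of 0.10 and 0.16) and without control sham replicate 2 (0.0984 and 0.065) or control TAC replicate 2 (0.106 and 0.0815). With the 2 groups fitted alone these and Col1a2 were lost too (0.0803, 0.0708 and 0.057).

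Among the structural relatives, 1 of 7 ADAMTS-like genes rose in controls (3 of 7 with the trend removed). It was Adamtsl2 (149 ± 47.5 to 650 ± 301, a difference of 2.03 ± 0.33, adjusted p = 0.0014). Over all genes tested, 11% rose, and 9.66% passed in either direction with the trend removed. Of 10 tested ADAM genes, from a family that includes membrane sheddases, 2 rose (11% of all genes did). They were Adam9 (0.68 ± 0.19) and Adam17 (0.47 ± 0.15). Both calls were lost with the length trend removed (adjusted p of 0.056 and 0.22), with the 2 groups fitted alone (0.0861 and 0.106) and without control TAC replicate 1 (0.0587 and 0.129) or 2 (0.0655 and 0.057). Adam17 was also lost without control sham replicate 3 (0.0947) and with no filter on low values (0.0582).

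In knockouts none of the genes on these lists passed between TAC and sham. After TAC, knockouts lay below controls for 7 of 13 MMP substrates, 5 of 9 ADAMTS substrates and 1 of 7 ADAMTS-like genes, against 4.13% of all genes tested. Once the trend over length and GC was taken out, these counts were 3, 3 and 0, and 3.36% of all genes tested passed in either direction. The ADAMTS-like gene was Adamtsl2 (−1.40 ± 0.33, adjusted p = 0.022), a call lost with the trend removed (0.083), with the 2 groups fitted alone (0.0639), and without replicate 1 or 2 of control TAC (0.0903 and 0.089) or of knockout TAC (0.0936 and 0.0937). Comp differed by −3.73 ± 0.28, Vcan by −1.34 ± 0.22 (−0.80 and adjusted p = 0.0526 with the trend removed), Col1a2 by −0.77 ± 0.12 (adjusted p = 0.0018) and Lrp1 by −1.52 ± 0.16 (adjusted p = 9.3e-05). In the interaction Comp passed (−3.31 ± 0.40, adjusted p = 0.0018), as did Lrp1 (−1.26 ± 0.23) and Lama2 (−1.11 ± 0.22), both lost with the length trend removed (adjusted p of 0.098 and 0.21). Lrp1 was also lost without replicate 2 of any group, control TAC or knockout TAC replicate 1, or knockout sham replicate 3 (adjusted p up to 0.110). Lama2 was kept only when control sham replicate 1 or 3 or knockout TAC replicate 3 was the library left out (adjusted p up to 0.158 otherwise).

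Markers of activated fibroblasts moved with the same groups. Of 7 tested markers 6 rose and 1 fell with TAC in controls, against 11% and 10.6% of all genes tested. The list's sums were 1965 to 2655 in control sham, 6340 to 7938 in control TAC, 1851 to 3213 in knockout sham and 2023 to 2910 in knockout TAC libraries. Cthrc1 was at 0 throughout and Comp is on this list as well. General fibroblast markers (10 tested, of which 3 rose and 1 fell with TAC in controls) summed to 28691 to 35835, 29081 to 30408, 28972 to 30637 and 22284 to 28722. The 8 atrial markers did not move together: 4 rose and 2 fell with TAC in controls (4 and 3 with the trend removed). Their sums were 1623 to 2255 in control sham and 3427 to 6874 in control TAC libraries. In knockout sham and knockout TAC libraries they were 2066 to 2209 and 2321 to 2880. The part of these cell types in the changes of Timp1, Adamts2, Adamts20 and Mmp2 was not tested.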

How the data were processed

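Polyadenylated RNA of 12 left ventricle apex libraries was analysed. Per the submitters' processing notes, STAR, SAMtools and featureCounts were used with the build GRCm38.p6, and the kit was stranded per the labels' protocols. Tool versions, annotation and strand setting: not given in the sources used here. Signal values were deposited, which are reads per gene divided by 1 size factor per library, as the values themselves show: 100% came out as whole reads (within 0.01). Of 56350 gene IDs, 55480 matched GENCODE M21, the source of symbols, positions and lengths. The 13916 genes that reached a value of 10 in 3 or more libraries entered limma-trend (limma 3.58.1, R 4.3.3, robust) on log2(value + 1), fitted with 4 group means over all libraries. Benjamini-Hochberg adjustment ran over all genes within each of 5 contrasts at 0.05. A gene "passed", "rose" or "fell" at that threshold, and groups did not overlap where every library of one lay above every library of the other. Alternatives were pseudocounts of 0.5 and 5, no filter, a filter at 50, TMM scaling, edgeR 4.0.16 and DESeq2 1.42.0 on recovered reads, a replicate block, removal of the length and GC trend, the compared groups alone, and leaving out each library. The fit was tested on simulated data. Changes are given for members that passed, the 4 TIMPs, the 5 with the smallest p where fewer than 5 passed, and up to 4 passing genes per list; changes of other members were picked after their values were seen. Members and lists were chosen with earlier results of these data known. Some results of the gene lists and of overlapping genes are not reported here.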

Additional observations from a re-analysis of the deposited data

How the results depend on the processing

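Of the 13 calls of members, 5 were kept under every alternative in which the gene was tested, 8 were lost in at least 1, and none changed sign. With TAC in controls, 4 members rose and 3 fell. With 1 library left out these counts ran from 2 to 6 and from 2 to 7. Both were lowest without control TAC replicate 2 and highest without control TAC replicate 3. The number that fell was also 2 without control sham replicate 3 and without control TAC replicate 1. The lower count was 1 with the filter at 50, where Mmp9 and Mmp12 are not tested. The replicate numbers do not pair the libraries (r of −0.072 to 0.249 for 18 pairs with the same number; 6 of 12 libraries correlated best with their own number), and with the replicate block 5 members fell, Mmp17 and Adamts7 in addition. For the genotypes after TAC, 2 members were higher in knockouts and 4 lower; without 1 library this ran from 0 to 2 and from 1 to 4, lowest without control TAC replicate 2 or knockout TAC replicate 1. The higher count was 1 with the filter at 50, 1 with edgeR and 1 with the compared groups alone, and 3 after removal of the length trend, where Adamts5 was gained. In the interaction DESeq2 called 1 lower member, and leaving out 1 library gave 0 to 1. Signs turned only for inhibitors below the threshold. Timp2 (0.038) and Timp3 (−0.15) turned for TAC in controls and Timp4 (0.050) for the genotypes after TAC once the length and GC trend was taken out. With single libraries left out, the range was −0.13 to 0.0094 for Timp2 and −0.098 to 0.23 for Timp3 (TAC in controls), −0.26 to 0.0036 for Timp3 (TAC in knockouts), −0.44 to 0.055 for Timp4 (genotypes after TAC) and −0.081 to 0.73 for Timp4 (interaction). The cause was not tested. Over all genes, calls ran from 1344 to 3656 (TAC in controls), 0 to 32 (TAC in knockouts), 0 to 1 (genotype after sham), 202 to 2143 (genotype after TAC) and 8 to 755 (interaction). Few reads limit Mmp12, Mmp13 and Adamts20. Adamts20 entered the test only through the control TAC libraries, and Mmp13 only through the knockout TAC libraries.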
